A study of Mus musculus with 4 samples.

Results

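The genes described here are 34 genes of cholesterol and fatty acid synthesis that are controlled by sterol regulatory element-binding proteins (SREBPs), together with the genes that control SREBPs and move sterol inside and out of the cell. They were taken by symbol from a list of pathway members, not by their values, and all 34 were found among the 47729 rows of the count table, with Msmo1 listed under its older symbol Sc4mol. The count filter kept 32 of them, and left out Scd1 and Fads2. RNA-seq had been done on splenic regulatory T (Treg) cells, the Foxp3-expressing CD4 T cells that restrain immune responses, sorted as CD25+YFP+ cells from 2 WT (Tfrc +/+ Foxp3 YFP-Cre/+) and 2 TfR1-deficient (Tfrc fl/fl Foxp3 YFP-Cre/+) samples of C57BL/6 mice. Tfrc encodes transferrin receptor 1 (TfR1), through which cells take up transferrin-bound iron, and the comparison asks what Treg cells transcribe when they lack it. Every sample carried the Foxp3 YFP-Cre allele, so Cre was made from the X-linked Foxp3 locus in both genotypes, and in heterozygous females only the YFP+ part of the Treg cells expresses it. The replicates were described as biological. The labels used here give no age, and they name spleen as the tissue, while the study's text for the sequenced cells also names lymph nodes.

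SREBPs are made as membrane precursors in the endoplasmic reticulum. When sterol is scarce, the escort protein SCAP carries them to the Golgi apparatus, where proteases release the part that enters the nucleus and drives synthesis and uptake genes, while INSIG proteins hold the complex back when sterol is plentiful. SREBP2 acts mostly on cholesterol genes and SREBP1 mostly on fatty acid genes, and T cells draw on both to build membranes when they divide. Several enzymes of the pathway hold iron: CYP51 is a haem enzyme, and MSMO1, SC5D, the stearoyl-CoA desaturases and the fatty acid desaturases use non-haem iron.

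The 4 libraries held between 10841939 and 17278448 counts. Tfrc itself stood at 50.8 and 54.1 CPM (read counts scaled to the library total and by the TMM factors of edgeR) in WT replicates 1 and 2, and the libraries labelled TfR1-deficient had 56.1 and 48.3 CPM, so that the count per gene did not separate the genotypes, and it does not show which exons the reads came from. Below, TfR1-deficient libraries are those so labelled, and each direction rests on the labels. The libraries differed along another line. The summed level of 20 macrophage genes reached 1605 CPM in the first WT library and 4436 CPM in the second TfR1-deficient one, but only 417 and 351 CPM in WT replicate 2 and TfR1-deficient replicate 1, with 20, 20, 18 and 20 of the genes above 0, and Fcgr1 and Sirpa at 0 in WT replicate 2. Csf1r, the receptor that defines macrophages, followed it at 124, 1.97, 4.96 and 371 CPM in WT replicates 1 and 2 and TfR1-deficient replicates 1 and 2. The same libraries had the higher sums of 21 proliferation genes, 3391 and 3295 CPM against 1706 and 1866 CPM. Treg genes were present throughout, with Foxp3 at 194 and 130 CPM in WT and 122 and 114 CPM in TfR1-deficient libraries. The sums of B cell genes (25.5 to 42.5 CPM), CD8 T cell genes (11.1 to 12.6 CPM), NK cell genes (50.9 to 67.5 CPM), platelet genes (1.88 to 3.37 CPM) and the 5 matched erythroid genes (16.9 to 278 CPM) were lower.

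The SREBP pathway as a whole differed little between the genotypes, and the gene that stood out was Srebf2, the gene for SREBP2. Srebf2 was lower in both TfR1-deficient libraries than in both WT libraries, while most of the cholesterol genes that SREBP2 is known to drive differed by less than their replicates did. By the quasi-likelihood test of edgeR with Benjamini-Hochberg adjustment over 12536 tested genes, none of the 32 tested members passed an adjusted p of 0.05 with a log2 fold change of at least 0.5 in size. No gene of the table did (0% called), the lowest adjusted p being 0.266. At an unadjusted p under 0.05, 655 of all genes and 3 of the members passed (Srebf2, Srebf1 and Acss2). With the minimum log2 fold change of 0.5 as well, 1 member was higher (Acss2), where 1.60% of all genes were, and 1 was lower (Srebf2), where 2.48% were. DESeq2 with adjustment over 11960 genes called 34 genes (0.284% of those it adjusted) and, among the members, Srebf2 alone.

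The members' fold changes were as small as those of other genes. Their median log2 fold change, TfR1-deficient over WT, was -0.07, with 13 higher and 19 lower, while the median of all tested genes was 0.01 and their quartiles were -0.20 and 0.23. In 26 of the 32 (81.2%) the log2 fold change was under 0.5 in size, beside 79.7% of all genes. Both TfR1-deficient libraries lay above both WT libraries for 3 members (Insig2, Acss2 and Scd2), 9.38% of those tested, where 16.0% of all genes did so. Both lay below for 7 members (Idi1, Cyp51, Msmo1, Hsd17b7, Srebf1, Srebf2 and Fasn), 21.9% of those tested, where 18.9% of all genes did so. The genotypes overlapped for the other 22. For 2 libraries against 2 the smallest p of an exact permutation test is 0.333, two-sided, which no member could pass.

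**Figure D1:**
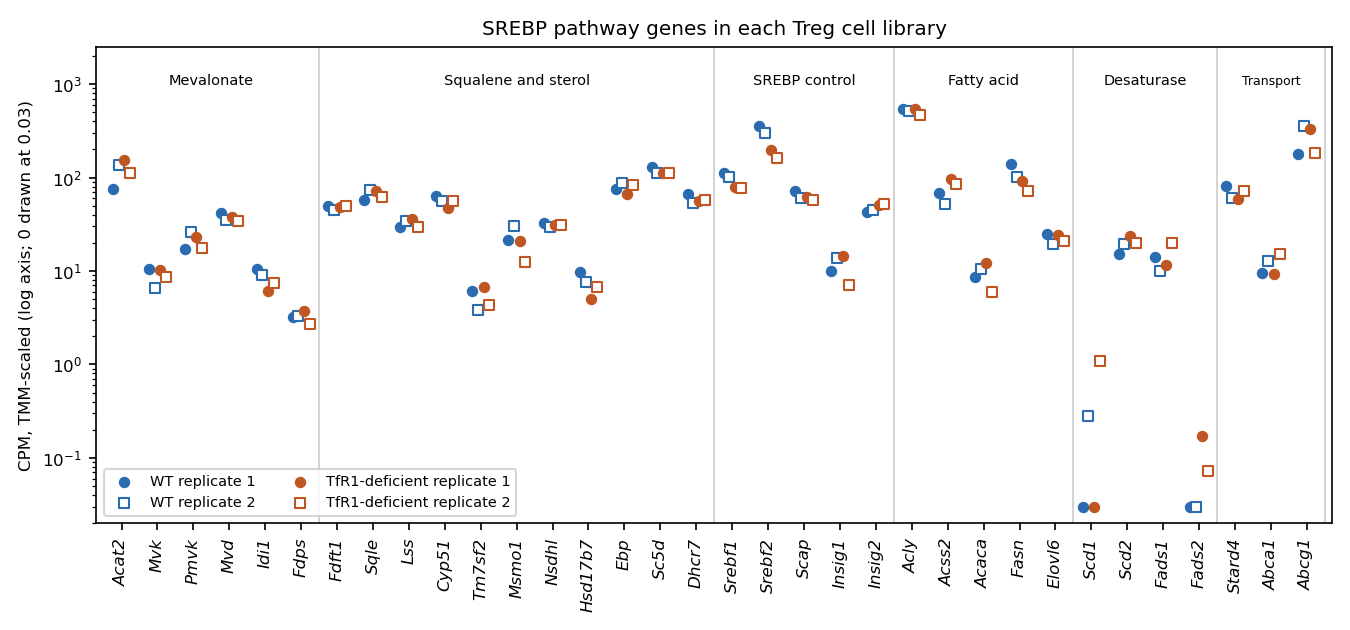
Level of each of the 34 genes in each library, in CPM on a log axis, grouped by role; circles are replicate 1, squares replicate 2, blue WT and orange TfR1-deficient, with 0 drawn at 0.03. The libraries lie close together for most genes, Srebf2 shows a gap between the genotypes, Abcg1 is low in WT replicate 1 and TfR1-deficient replicate 2 and high in the other libraries, and Scd1 and Fads2 lie near 0.

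In absolute terms the pathway was unevenly expressed. Per kilobase of exon sequence, and averaged over the 4 libraries, the level was highest for Acly (97.7 CPM per kb), followed by Abcg1 (64.5), Srebf2 (51.1), Sc5d (49.8) and Acat2 (47.1). Srebf1, at 16.5 CPM per kb, had the lower level of the SREBP pair in all 4 libraries. At the other end stood the desaturase genes Fads2 (0.041 CPM per kb) and Scd1 (0.071 CPM per kb), followed by Acaca (0.92) and Abca1 (1.13). Within the cholesterol enzymes the level ranged from 1.42 CPM per kb for Hsd17b7 to 49.8 CPM per kb for Sc5d.

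The control genes of the pathway held the largest difference. Srebf2 (chr15:81977696-82035806, plus strand, NCBIM37) stood at 360 and 299 CPM in WT replicates 1 and 2 and at 199 and 162 CPM in TfR1-deficient replicates 1 and 2. The lowest WT value was thus well above the highest TfR1-deficient value. The means were 329 ± 43.2 CPM and 181 ± 26.2 CPM (SD, n = 2 each), and the log2 fold change was -0.87 (SE 0.18, 95% interval -1.33 to -0.41). In edgeR the adjusted p was 0.911, and in DESeq2 the log2 fold change was -0.86 with an adjusted p of 0.034. The adjusted p from edgeR and DESeq2 ran from 0.00177 to 0.9999 over the alternatives fitted gene by gene, the lower bound being edgeR without a count filter, so whether Srebf2 counts as called depended on the processing. The direction did not in any alternative fit, and the log2 fold change ran from -0.999 to -0.709 when each library was left out in turn. Because the genotypes did not overlap, leaving out 1 library could not have turned the sign. The log2 difference was -0.58 between the libraries low in macrophage genes (TfR1-deficient replicate 1 against WT replicate 2). Between those high in them it was -1.15. Both had to be below 0, since the genotypes did not overlap. Summed over 8 Treg and T cell genes, the level was 4068 and 3611 CPM in TfR1-deficient libraries and 4894 and 4655 CPM in WT. That sum was thus lower in both, but Ikzf2, Tnfrsf18 and Cd3d among these genes overlapped between the genotypes. The part of this difference in the Srebf2 result was not tested. In RNA from a sorted bulk population, fewer cells of one kind and less RNA per cell cannot be told apart.

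Srebf1 (chr11:60012591-60036083, minus strand, NCBIM37), the gene for SREBP1, was at 112 and 103 CPM in WT and at 80.2 and 77.5 CPM in TfR1-deficient libraries. The genotypes again did not overlap, with a log2 fold change of -0.45 (SE 0.14, 95% interval -0.79 to -0.10), an edgeR adjusted p of 0.911 and a DESeq2 adjusted p of 0.919. The difference was -0.36 in the macrophage-low pair and -0.53 in the macrophage-high pair, and without WT replicate 2 Srebf1 passed the unadjusted threshold, at -0.51. Without any one of the other 3 libraries, or with a replicate block, its unadjusted p was above 0.05. Scap, which escorts both SREBPs to the Golgi apparatus, differed little, at 72.2 and 60.9 CPM against 61.3 and 58.1 CPM (log2 fold change -0.16). The INSIG genes, whose products retain SCAP in the endoplasmic reticulum, lay on either side of no difference. Insig2 was at 43.1 and 44.8 CPM in WT and at 51.4 and 52.6 CPM in TfR1-deficient libraries, a small difference without overlap (log2 fold change 0.24, SE 0.15, edgeR adjusted p = 0.934). Insig1, itself a target of SREBPs, was at 10.1 and 13.9 CPM against 14.4 and 7.15 CPM, and its replicates spanned the whole range (log2 fold change -0.15, SE 0.43).

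Promoter sequences were set beside these values because SREBPs bind short elements there, together with the factors NF-Y and SP1. RefSeq windows of 300 bases, from 250 bases before the start of a transcript to 50 after it (GRCm38.p6), were at hand for 26 of the 34 genes, in 34 windows. The letters TCACNCCAC, a form of the sterol regulatory element, were in none of the member windows on either strand, and in 1.24% of all 32851 windows. The shorter TCACCCCA, searched after that result was seen, was in 1 member window, that of Srebf2, where it began 162 bases before the start, and in 1.56% of all windows. CCAAT, the box that NF-Y binds, was in 61.8% of the member windows and 37.4% of all windows, and among cholesterol enzymes in 13 of 14 genes. GGGCGG, the box that SP1 binds, was in 76.5% of the member windows and 35.7% of all windows. A match of letters is a description of the sequence and not a bound site. The windows of Srebf2, Fasn and Acss2, which had the widest differences among the control and fatty acid genes, are printed 5′ to 3′ on the strand of the gene, with matches to these 4 motifs, on either strand, in capitals. They are at chr15:82147019-82147318 (plus) for Srebf2, chr11:120824498-120824797 (minus) for Fasn and chr2:155517793-155518092 (plus) for Acss2.
Srebf2: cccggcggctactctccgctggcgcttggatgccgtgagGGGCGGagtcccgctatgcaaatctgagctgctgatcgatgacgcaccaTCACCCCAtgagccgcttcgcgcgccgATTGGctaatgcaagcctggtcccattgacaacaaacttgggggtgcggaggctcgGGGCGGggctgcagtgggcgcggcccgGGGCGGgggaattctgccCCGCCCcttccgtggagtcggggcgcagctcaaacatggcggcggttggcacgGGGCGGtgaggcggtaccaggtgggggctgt
Fasn: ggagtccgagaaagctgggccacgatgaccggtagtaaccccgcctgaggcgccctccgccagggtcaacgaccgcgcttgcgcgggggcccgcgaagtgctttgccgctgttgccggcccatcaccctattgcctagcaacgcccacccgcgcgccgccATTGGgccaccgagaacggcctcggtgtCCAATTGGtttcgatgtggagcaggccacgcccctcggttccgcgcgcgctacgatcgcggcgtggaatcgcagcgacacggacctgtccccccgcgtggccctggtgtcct
Acss2: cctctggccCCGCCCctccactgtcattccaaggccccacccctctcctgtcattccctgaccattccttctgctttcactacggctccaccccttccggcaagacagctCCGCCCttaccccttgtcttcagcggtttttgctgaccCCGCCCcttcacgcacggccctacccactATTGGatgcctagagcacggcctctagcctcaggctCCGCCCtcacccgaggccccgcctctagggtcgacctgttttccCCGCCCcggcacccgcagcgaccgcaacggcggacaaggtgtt

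In the mevalonate branch, which turns acetyl-CoA into the isoprenoid building blocks, 2 of the 6 genes were higher and 4 lower, with a median log2 fold change of -0.04 and no call. Acat2, the cytosolic thiolase at its entry, had one of the 5 largest positive fold changes in the set, at 76.3 and 137 CPM in WT and 153 and 113 CPM in TfR1-deficient libraries. Its WT replicates lay on both sides of the TfR1-deficient replicate 2 value, and the log2 fold change of 0.32 was about as large as its error (SE 0.32). Without WT replicate 2 it was 0.80 and passed the unadjusted threshold, and without WT replicate 1 it was -0.02. Idi1, the isomerase that makes dimethylallyl diphosphate, was at 10.5 and 8.999 CPM in WT and 6.11 and 7.37 CPM in TfR1-deficient libraries, lower in both by a log2 fold change of -0.53 (SE 0.30, edgeR adjusted p = 0.928). The mevalonate kinase gene Mvk (log2 fold change 0.14), the phosphomevalonate kinase gene Pmvk (-0.08), the decarboxylase gene Mvd (-0.10) and the farnesyl diphosphate synthase gene Fdps (-0.003) lay between them. The counts of Fdps and Idi1 are uncertain, because 96.4% and 86.6% of their exon bases had a copy of at least 95% identity elsewhere in the genome, as had 54.0% of those of Acat2.

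In the squalene and sterol branch, which closes the ring and trims it to cholesterol, 5 of the 11 genes were higher and 6 lower, with a median log2 fold change of -0.07 and no call. The sum of the 11 genes was 541 and 533 CPM in WT and 504 and 504 CPM in TfR1-deficient libraries. The widest differences were in Msmo1 and Hsd17b7, which work in the removal of the methyl groups at carbon 4 of the ring. Msmo1, the iron-dependent methyl oxidase, was at 21.4 and 30.1 CPM in WT and at 20.9 and 12.4 CPM in TfR1-deficient libraries. Those values came close to each other, since WT replicate 1 exceeded TfR1-deficient replicate 1 by little, and the log2 fold change of -0.62 (SE 0.34, edgeR adjusted p = 0.923) was uncertain. Without TfR1-deficient replicate 1 it was -1.02 and passed the unadjusted threshold, while without WT replicate 2 (-0.36) or TfR1-deficient replicate 2 (-0.30) it did not. Hsd17b7, the 3-keto reductase, was at 9.74 and 7.59 CPM against 5.01 and 6.72 CPM (log2 fold change -0.57, SE 0.34, adjusted p = 0.934 by edgeR). Nsdhl, the dehydrogenase that acts between them, was level at 32.6, 29.7, 31.1 and 31.4 CPM, with a log2 fold change of 0.004 and an interval from -0.45 to 0.46.

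The other sterol enzymes differed less. Cyp51, the haem-containing 14-demethylase, was at 63.2 and 56.8 CPM in WT and 47.6 and 56.3 CPM in TfR1-deficient libraries, with 1 pair of values nearly equal (log2 fold change -0.21, SE 0.16). Sqle, the squalene epoxidase and a rate-limiting enzyme of the branch, had a log2 fold change of 0.01 with a 95% interval from -0.45 to 0.48. Fdft1 (squalene synthase), Lss (lanosterol synthase), Tm7sf2 (a sterol reductase), Ebp (a sterol isomerase), Sc5d (a desaturase) and Dhcr7 (the last reductase of one route) had log2 fold changes between -0.11 and 0.16. For the 17 mevalonate and sterol enzymes together the median was -0.07, and 4 of them were lower in both TfR1-deficient libraries (Idi1, Cyp51, Msmo1 and Hsd17b7) and none higher in both, that is 23.5% and 0% beside 18.9% and 16.0% of all genes. The median distance of the 17 from 0 was 0.11 on the log2 scale, and that of all tested genes was 0.21. The share lower in both rests partly on close values. Over all tested members 6 lay below without overlap, rather than 7, with DESeq2 size factors or total library size only.

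The fatty acid genes held differences in both directions. Acss2 (chr2:155343684-155411460, plus strand, NCBIM37), which makes acetyl-CoA from acetate, was at 68.2 and 51.6 CPM in WT and at 97.1 and 85.9 CPM in TfR1-deficient libraries. Both TfR1-deficient values exceeded both WT values, with a log2 fold change of 0.61 (SE 0.19, 95% interval 0.13 to 1.09), an edgeR adjusted p of 0.911 and a DESeq2 adjusted p of 0.691. It no longer passed the unadjusted threshold without WT replicate 2 or without TfR1-deficient replicate 1, where the log2 fold change was 0.42 and 0.55. The difference was 0.91 in the macrophage-low pair and 0.33 in the macrophage-high pair. Acly, which makes the same product from citrate and was the most expressed member, was level at 542, 516, 536 and 469 CPM (log2 fold change -0.07, 95% interval -0.44 to 0.29).

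Fasn (chr11:120667254-120685492, minus strand, NCBIM37), the fatty acid synthase gene, went the other way from Acss2. It was at 138 and 101 CPM in WT and at 91.9 and 71.9 CPM in TfR1-deficient libraries, the nearest values being those of WT replicate 2 and TfR1-deficient replicate 1. The log2 fold change was -0.55 (SE 0.22, 95% interval -1.11 to 0.02, edgeR adjusted p = 0.911), and -0.28 without WT replicate 1. Without WT replicate 2 (-0.76) or TfR1-deficient replicate 1 (-0.70) Fasn passed the unadjusted threshold. Between the macrophage-low libraries the log2 difference was -0.13 and between the macrophage-high libraries it was -0.94. Most of it thus lay in the pair that also carried more macrophage transcripts, whose part in it was not tested. Acaca, the carboxylase that feeds FASN, was at 8.68 and 10.6 CPM against 12.0 and 5.99 CPM, and Elovl6, the elongase that follows it, at 24.97 and 19.7 CPM against 24.2 and 21.03 CPM. Their log2 fold changes were -0.09 and 0.02, and 79.4% and 37.6% of their exon bases had near-identical copies elsewhere. The share was also 79.4% for Insig1 and 56.3% for Fdft1. Without the 7 genes of high copy share (Acat2, Idi1, Fdps, Fdft1, Insig1, Acaca and Elovl6) the median of the other 25 tested members was -0.07. Of these 25, 3 lay above and 6 below without overlap, where 16.0% and 18.9% of all genes did so.

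The desaturases, which put double bonds into fatty acids, were little expressed. Scd2 was at 15.4 and 19.4 CPM in WT and at 23.6 and 20.003 CPM in TfR1-deficient libraries, slightly higher in both (log2 fold change 0.33, SE 0.24, edgeR adjusted p = 0.950). Fads1 was at 14.2 and 9.94 CPM against 11.5 and 20.1 CPM (log2 fold change 0.38, SE 0.38), with overlapping genotypes. Scd1 had 0 and 3 counts in WT and 0 and 15 counts in TfR1-deficient libraries. Fads2 had 0 and 0 counts against 3 and 1. Neither could be compared at this depth. Of the 7 members whose enzymes hold iron (Cyp51, Msmo1, Sc5d, Scd1, Scd2, Fads1 and Fads2), 5 were tested, with 2 higher, 3 lower and no call. Their median log2 fold change was -0.11, and that of the 27 other tested members was -0.07.

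**Figure D2:**
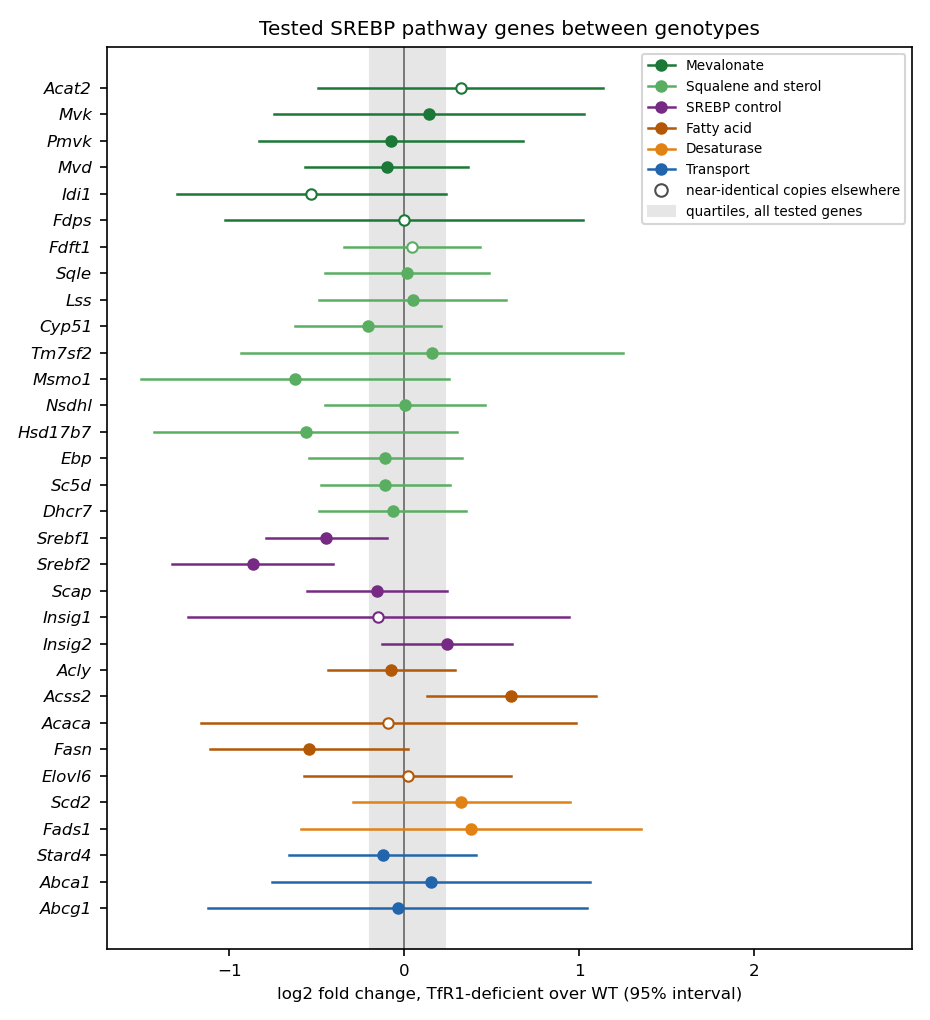
Log2 fold change of each of the 32 tested genes (TfR1-deficient over WT) with its 95% interval from the edgeR fit, coloured by role; open circles mark genes with many near-identical bases elsewhere in the genome, and the grey band spans the quartiles of all tested genes. The intervals of Srebf2, Srebf1 and Acss2 leave out 0, before any adjustment for the number of genes, and the median of all 32 is -0.07.

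Among the sterol transport genes, Abcg1 separated libraries rather than genotypes. Abcg1, which exports cholesterol and is induced through liver X receptors when sterol is plentiful, stood at 179 and 353 CPM in WT replicates 1 and 2 and at 335 and 182 CPM in TfR1-deficient replicates 1 and 2. Its replicates differed 1.97-fold in WT and 1.84-fold in TfR1-deficient cells, and its log2 fold change between genotypes was -0.04 (SE 0.43). The 2 libraries with low Abcg1 were those with more macrophage and proliferation transcripts, and the part of either in that difference was not tested. Within the macrophage-low and the macrophage-high pair, Abcg1 differed between genotypes by only -0.07 and 0.03 on the log2 scale. Abca1, another liver X receptor target and cholesterol exporter, was at 9.50 and 12.7 CPM against 9.39 and 15.3 CPM (log2 fold change 0.15, SE 0.36). Stard4, a carrier of sterol between membranes, had a log2 fold change of -0.12 (SE 0.21).

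Because the split by macrophage transcripts ran across the genotypes, the members were also compared between TfR1-deficient replicate 1 and WT replicate 2, the low pair, and between TfR1-deficient replicate 2 and WT replicate 1, the high pair. With 1 library on each side there is no test. In the low pair 19 members were higher and 13 lower, with a median log2 difference of 0.05. In the high pair 11 were higher and 21 lower, with a median of -0.20, while the medians of all genes were 0.01 and -0.004. Both pairs gave the same direction for 14 members, 6 higher and 8 lower. Counts of direction were not made over all genes, so these have no background share beside them. Srebf2, Srebf1, Idi1, Msmo1 and Hsd17b7 differed by -0.36 or further below 0, on the log2 scale, in both pairs, and Acss2 was the member higher by at least 0.33 in both. For these members the genotypes did not overlap, so the sign had to be the same in both pairs.

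**Figure D3:**
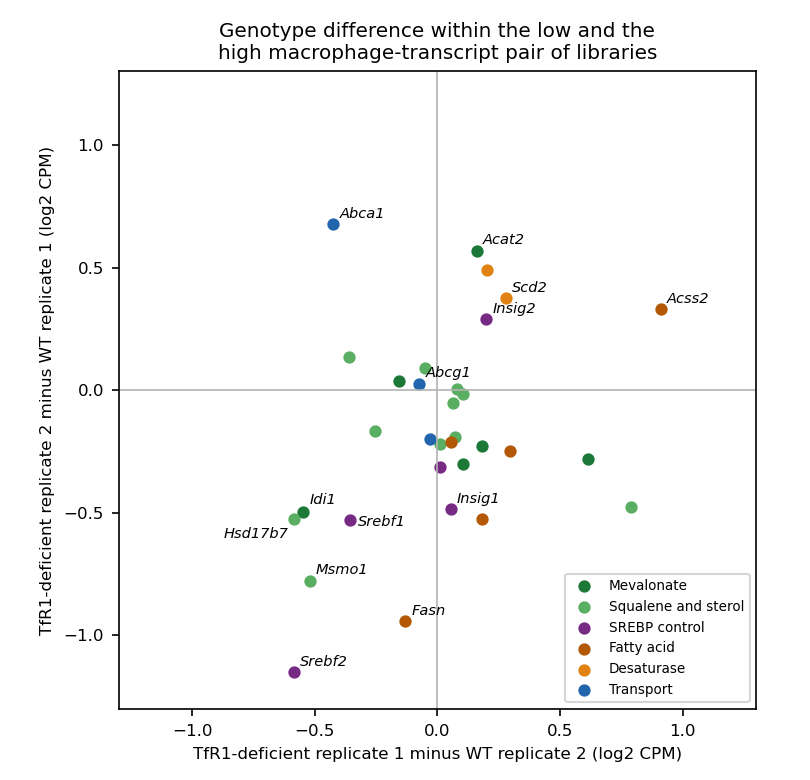
Log2 difference between TfR1-deficient and WT libraries of the 32 tested genes within the pair low in macrophage transcripts (x axis) and within the pair high in them (y axis), coloured by role. Srebf2 lies at -0.58 and -1.15, Acss2 at 0.91 and 0.33, and 14 of the 32 genes have the same sign in both pairs. The share of all genes with the same sign was not computed.

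A list of 29 further genes of the pathway, which are no members (proteases, receptors, uptake and esterification genes, other elongases), gave no call either. Of the 26 tested, 15 were higher and 11 lower, with a median log2 fold change of 0.06, and none passed the unadjusted threshold in either direction. Both TfR1-deficient libraries lay above both WT libraries for 6 (23.1%, beside 16.0% of all genes) and below for 3 (11.5%, beside 18.9%). The following were picked after their values were seen. Mbtps1, the site 1 protease that makes the first cut in SREBPs, was at 260 and 247 CPM against 221 and 222 CPM (log2 fold change -0.20, SE 0.13). Nr1h3, the gene of a liver X receptor that macrophages express strongly, was at 9.90, 1.22, 2.25 and 31.6 CPM in WT replicates 1 and 2 and TfR1-deficient replicates 1 and 2, in the order of the macrophage sum but for the lowest 2 libraries. Nr1h2, the gene of the more widely expressed receptor, was at 169, 215, 217 and 201 CPM.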

How the data were processed

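RNA-seq counts of sorted Treg cells from 2 WT and 2 TfR1-deficient samples were used. The authors deposited raw counts per gene for each sample, as whole numbers that were not normalized. Per the labels' processing notes reads were trimmed with Trim Galore 0.6.7, aligned with STAR 2.7.9a to mm10 and counted with featureCounts, while the study's methods name mm9. The annotation release, the strand setting and the treatment of multi-mapping reads were not given in the sources used here, so genes with near-identical copies could gain or lose counts.

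Genes were matched to symbols through their Ensembl identifiers (32799 of 47729 rows, and 0.907% of counts lay in rows without a symbol). The deposited counts were filtered with filterByExpr (minimum count 10), scaled with TMM factors and compared between genotypes in edgeR 4.0.16 (R 4.3.3) by its quasi-likelihood test, with Benjamini-Hochberg adjustment over all tested genes. A gene was called at an adjusted p under 0.05 and a log2 fold change of at least 0.5 in size, and the unadjusted threshold used the same values. Totals of 10841939 to 17278448 counts make counting error small for all but the lowest genes, so the spread between 2 replicates sets the precision. DESeq2 1.42.0, other scalings and filters, a replicate block and leaving out each library were alternatives. The fits were tested on simulated data. At a log2 fold change of 1 in size, edgeR recovered 7 of 64 changed genes and DESeq2 15 of 66, so most were missed. At 2, they recovered 36 of 62 and 44 of 65, and at 3, 48 of 63 and 49 of 69. Among unchanged genes edgeR called 21 of 11995 and DESeq2 50 of 12336. False calls were thus not rare beside recovered genes, and those of DESeq2 outnumbered its recoveries at each size. The DESeq2 call of Srebf2 has to be read with that in mind. Simulated libraries varied independently, without the macrophage and proliferation split of the real ones. Exon lengths and gene positions came from GENCODE vM1 (NCBIM37), copies from blastn searches of exons against that genome, and promoter windows from RefSeq (GRCm38.p6). Coordinates were never carried between builds. Summed levels are in CPM.

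Values in every library are given for members past the unadjusted threshold, members without overlap, the 5 largest log2 fold changes in each direction, Srebf1, Srebf2, Insig1, Insig2, Abca1, Abcg1 and members that failed the filter. The members, lists and tests were chosen with earlier results of these data known.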

Additional observations from a re-analysis of the deposited data

How the results depend on the processing

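Of 320 single-gene values from alternative fits, 280 kept direction and side of the adjusted threshold, 38 turned sign and 2 became calls (Srebf2). No member was called in the main fit and most alternative fits called no gene, so the side of the threshold could hardly change. DESeq2 called 6 genes higher and 28 lower over the table, and edgeR without a count filter 167 and 95; each called 1 member lower, Srebf2. The members past the unadjusted threshold and lower numbered 2 with DESeq2, 2 with at least 10 counts in every library and 2 without a minimum fold change. They numbered 3 without a count filter and 0 with a minimum log2 fold change of 1, where none was higher (0). Without a count filter 1 further pathway gene passed the threshold upwards. Of the 12536 genes tested by edgeR, DESeq2 put 305 lower and 199 higher past it. In the other settings the lower genes past it were not counted over all genes, so those numbers of members have no background share beside them. Leaving out each library gave a median of the members of -0.0832 to 0.00381. The single pairs gave medians of 0.0549 and -0.204. Members below without overlap numbered 7 in the main fit and without a count filter. They numbered 6 with DESeq2 size factors, total library size only or at least 10 counts in every library. Those above numbered 3, or 4 without a count filter. The shares of all genes were computed for the main fit only. The cause of these changes was not tested.

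The labels used here number the replicates and do not say whether the numbers pair the samples. Deviations of same-numbered libraries from their genotype means correlated at -0.61 over all tested genes, which cannot show how the samples were collected. With the number as a replicate block, 0 genes and 0 members were called, and the median of the members was -0.06. With the crossed pairing, added after seeing the data, 150 of 12536 genes were called higher and 210 lower. Among the members 1 was called higher, 1 was called lower and 3 passed the unadjusted threshold and were lower. Genes past the unadjusted threshold were not counted over the whole table in that fit.

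The sign of Fdps was positive in 5 fits to all libraries, at 0.00657 (DESeq2), 0.00762 (its size factors), 0.0318 (total counts), 0.0074 (no filter) and 0.016 (10 counts). Leaving out 1 library turned the sign of 21 members, whose log2 fold changes then ran from -0.0241 to 0.80 (Acat2), -0.15 to 0.51 (Mvk), -0.32 to 0.24 (Pmvk), -0.22 to 0.0386 (Mvd), -0.23 to 0.21 (Fdps), -0.0384 to 0.14 (Fdft1), -0.13 to 0.20 (Sqle), -0.084 to 0.19 (Lss), -0.17 to 0.54 (Tm7sf2), -0.0655 to 0.0898 (Nsdhl), -0.27 to 0.0656 (Ebp), -0.22 to 0.0211 (Sc5d), -0.21 to 0.11 (Dhcr7), -0.71 to 0.26 (Insig1), -0.14 to 0.0157 (Acly), -0.65 to 0.32 (Acaca), -0.15 to 0.22 (Elovl6), -0.0813 to 0.76 (Fads1), -0.33 to 0.14 (Stard4), -0.24 to 0.50 (Abca1) and -0.51 to 0.53 (Abcg1). The other 11 tested members kept their sign in these fits, but the values moved by over 1.5 times for Scap (-0.28 to -0.01), Cyp51 (-0.34 to -0.06), Msmo1 (-1.02 to -0.30), Hsd17b7 (-0.79 to -0.34), Fasn (-0.76 to -0.28) and Scd2 (0.18 to 0.50). Exonic deletion of Tfrc and allele-specific reads were not analysed here.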
